A study of Mus musculus with 8 samples.

Results

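Among 73709 regions of accessible chromatin in mouse hepatocytes, 197 crossed a threshold of rank by peak strength in mid-course after partial hepatectomy (PHx). PHx is surgery that takes out some of the liver lobes. The 197 regions were back at 96 h on the side where they had been at 0 h. Of these, 105 were held at 48 h and 72 h and not at 0 h and 96 h, and are called opened. The other 92 had the reverse pattern and are called closed. The regions were chosen by their place in the peak lists of the 8 ATAC-Seq libraries themselves. Each list was collapsed to distinct intervals on chromosomes 1 to 19 and X, the 50000 intervals with the strongest peak-calling p-value were kept, and the kept intervals of all lists were merged into regions wherever they shared 1 bp. An opened region was covered by kept intervals of all 4 libraries of 48 h and 72 h and of none of the 4 libraries of 0 h and 96 h. Opened regions were 0.142% and closed regions 0.125% of all regions. They were 2.29% and 2.01% of the 4577 regions kept in exactly 4 of the 8 lists, whichever the 4 libraries were, and 28519 regions were kept in all 8.

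ATAC-Seq uses the Tn5 transposase to cut and tag DNA that nucleosomes leave accessible, so a peak marks accessible DNA, often a promoter or enhancer. Enhancers of differentiated hepatocytes carry sites for liver-enriched factors such as HNF4A, FOXA, C/EBP and ONECUT proteins. Growth and stress signals after PHx act on chromatin through factors such as AP-1, a dimer of JUN and FOS family proteins. CTCF is a DNA-binding protein that organizes chromatin loops and insulates domains.

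The labels give C57BL/6 mice of 10-12 weeks on a normal diet, and the study's methods give male C57BL/6J mice that were somewhat younger at surgery. Hepatocytes were isolated by two-step collagenase perfusion. The 0 h group was undamaged liver, and the other groups were taken 48, 72 and 96 h after PHx. Each time point had 2 libraries, and which animals gave which library is not stated in the sources used here. Further replicates of 0 h and 48 h that the study describes were not analysed here. Because each library pools many nuclei, fewer cells with an open region and less accessibility per cell cannot be told apart.

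The deposited lists held 105185 to 154545 distinct intervals, and read depth is unknown because the lists hold no counts. The weakest kept interval had a −log10 p between 8.05 (48 h replicate 1) and 15.2 (0 h replicate 1). Kept intervals reached the promoters of 10 and 12 of 15 hepatocyte marker genes at 0 h, 4 and 7 (48 h), 5 and 6 (72 h), and 7 and 11 (96 h). Promoters of 18 endothelial markers were kept for 4 to 5 genes in each library, those of 28 macrophage and lymphoid markers for 0 to 2, and those of 20 stellate and fibroblast markers for 6 to 7. The endothelial counts and the stellate and fibroblast counts did not follow the mid-course pattern. Those of macrophage and lymphoid markers were too low to show one. They were 0 and 0 (0 h), 1 and 1 (48 h), 0 and 2 (72 h), and 0 and 1 (96 h). The hepatocyte count was at or below 7 in every library of 48 h and 72 h. It was at or above 7 in every library of 0 h and 96 h. The part of the hepatocyte markers in the results was not tested. None of the 197 regions had a gene of these 4 marker lists as its nearest coding gene within 100000 bp, which was the case for 0.18% of all regions with the hepatocyte list and for 0.0421% to 0.099% with the others.

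The sequences at the summits of the 3 most separated regions of each direction are printed to show what the clearest changes looked like. Separation is the best rank in the 4 libraries that must lack the region divided by the worst rank in the 4 that must hold it, so that a higher value means a wider gap. Each line gives the gene with the nearest coding start site and 120 bases of the plus strand of mm10 (GRCm38), with capitals marking matches to any of the 26 motifs searched.
Atp13a3, opened (chr16:30466029-30466148): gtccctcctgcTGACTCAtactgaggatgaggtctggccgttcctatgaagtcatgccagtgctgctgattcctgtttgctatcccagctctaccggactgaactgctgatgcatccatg
Nr2e3, opened (chr9:59975206-59975325): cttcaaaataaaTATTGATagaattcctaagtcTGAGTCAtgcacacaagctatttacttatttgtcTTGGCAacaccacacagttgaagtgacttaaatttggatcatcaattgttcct
Serinc5, opened (chr13:92595406-92595525): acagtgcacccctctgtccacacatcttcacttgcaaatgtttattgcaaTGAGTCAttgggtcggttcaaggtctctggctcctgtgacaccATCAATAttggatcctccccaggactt
Gpc5, closed (chr14:114531978-114532097): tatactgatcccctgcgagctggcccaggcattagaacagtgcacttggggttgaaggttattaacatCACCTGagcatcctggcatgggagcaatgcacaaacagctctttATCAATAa
Serp2, closed (chr14:76733456-76733575): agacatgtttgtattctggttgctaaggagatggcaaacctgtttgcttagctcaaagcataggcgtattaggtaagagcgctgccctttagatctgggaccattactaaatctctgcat
Inpp4b, closed (chr8:81778855-81778974): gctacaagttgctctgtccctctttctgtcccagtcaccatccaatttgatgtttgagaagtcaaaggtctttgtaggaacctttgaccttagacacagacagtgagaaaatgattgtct
All 3 opened sequences held the palindromic AP-1 motif TGANTCA, as TGACTCA near Atp13a3 and as TGAGTCA near Nr2e3 and Serinc5. None of the 3 closed sequences held it. The windows near Nr2e3 and Serinc5 also held the ONECUT motif ATCAATA, as did the closed window near Gpc5. A match is a string of letters in the reference genome and does not show that the factor was bound.

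A further 5 stretches of 60 bases show the motifs on which the directions differed, each with only the named motif in capitals. The region chosen for each was the most separated one of its direction that held the motif.
Ndufaf8, opened, CTCF (chr11:120101219-120101278): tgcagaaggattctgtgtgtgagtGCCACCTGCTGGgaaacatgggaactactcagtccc
Zbtb2, closed, CTCF (chr10:4405042-4405101): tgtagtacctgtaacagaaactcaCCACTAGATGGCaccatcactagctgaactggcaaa
Tcf7l2, closed, AP-1 (chr19:55808520-55808579): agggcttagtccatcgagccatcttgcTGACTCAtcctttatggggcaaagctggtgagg
Rad21l, opened, C/EBP (chr2:151676434-151676493): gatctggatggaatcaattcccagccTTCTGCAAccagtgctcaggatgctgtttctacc
Serp2, closed, C/EBP (chr14:76733401-76733460): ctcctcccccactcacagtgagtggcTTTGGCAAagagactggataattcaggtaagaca

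How far the regions moved was read from their rank in the full lists, in which a rank of 1 is the strongest interval. Because the rule used these ranks in all 8 libraries, they are given as a description with no test. Opened regions had a median rank of 59872 and 68228 in the 2 libraries of 0 h. The median was 38597 and 38709 (48 h) and 40585 and 37634 (72 h). At 96 h it was 59734 and 67389. Lists differ in length, so the percentile within the list, where a higher value is stronger, is given too. The opened medians were, in order of time, 52.8 and 35.1, 67.3 and 72.2, 71.1 and 75.65, and 58.7 and 47.2. Over all regions they were 70.4 and 64.5, 67.7 and 73.1, 73.3 and 75.8, and 74.2 and 70.5. All regions were thus also higher at 96 h than at 0 h. For closed regions the percentiles were 69.9 and 66.5, 39.35 and 51.25, 56.9 and 61.2, and 71.2 and 68.4. By rank, the 0 h libraries gave closed medians of 38186 and 35205, and those of 96 h gave 41730 and 40251. In between, the medians were 71522 and 67940 (48 h) and 60434 and 59911 (72 h). A rank is relative to its own list. Median −log10 p in opened regions was, in order of time, 11.4 and 7.03, 10.8 and 11.8, 19.4 and 19.5, and 11.1 and 6.12. At 48 h it was thus near replicate 1 of 0 h and of 96 h. The weakest kept interval was at 8.05 and 8.62 (48 h) but at 15.2 and 14.5 in those replicates. Closed regions had 22.2 and 16.2, 6.02 and 5.78, 11.3 and 11.1, and 18.1 and 11.3 in order of time.

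These were shifts in rank across a threshold more than the appearance and loss of peaks. Of the 105 opened regions, 72 (68.6%) had an interval in the full list of every library of 0 h and 96 h, 28 had none in 1 of those 4 lists, 5 had none in 2, and 0 had none in 3 or 4. The closed regions gave the same picture, with 68 of 92 (73.9%) present in all 4 full lists of 48 h and 72 h, 20 lacking an interval in 1, 4 in 2 and 0 in 3 or 4. Opened regions lacked an interval most often in 0 h replicate 2 (20 regions) and 96 h replicate 2 (16), and closed regions in 48 h replicate 1 (21). Of all regions, 9.71%, 9.47% and 10.8% lacked an interval in the same 3 lists, against 3.26% to 7.43% in the others. Those 3 lists held 105185, 127537 and 117924 distinct intervals, and the part of list length in the result was not tested.

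**Figure D1:**
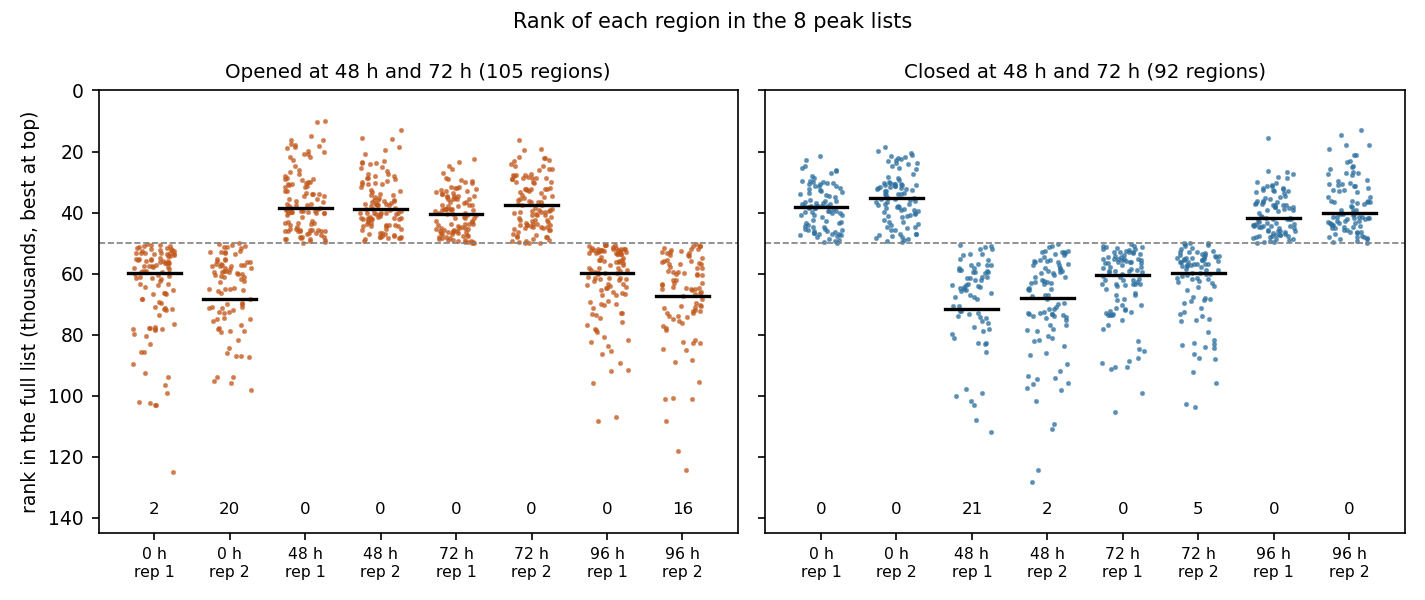
Rank of each of the 105 opened (left) and 92 closed (right) regions in the full list of each library, best rank at the top. Points are regions, black bars the medians with a missing interval counted as the rank after the last one, the dashed line the threshold of 50000 that chose the regions, and the numbers at the bottom the regions with no interval in that library, which were 20 of 105 for opened regions at 0 h replicate 2.

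The gap between the groups of libraries was narrow in most regions. Separation had a median of 1.22 in opened regions (range 1.02 to 2.10) and 1.21 in closed regions (range 1.02 to 1.99). It reached 1.5 in 9 opened and 12 closed regions, and 1.2 in 60 and 47. The opened regions of smallest separation were an intron region of Tns1, with a worst rank of 49334 at 48 h and 72 h against a best rank of 50186 at 0 h and 96 h, and a region at the start of Gab3, with 49133 against 50527. The closed ones of smallest separation lay near Ero1lb, at 49955 against 50927, and Gm10192, at 49500 against 51258. Among regions with the same order of ranks, those that failed the threshold by the fewest places were, on the opened side, a region near BC067074, with 46488 against 49994, and one near Lta4h, with 50017 against 62052. On the closed side, regions near Ube2v2 (50065 against 55066) and Zfp385a (44492 against 49924) failed by the fewest places. The Lta4h region thus had a wider gap, at a separation of 1.24, than the median opened region and was left out by 17 places in 1 list.

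Without the threshold, the same order of all 8 ranks was found in 1413 regions for opening (1.92% of all) and 1540 for closing (2.09%), the 197 included. A different threshold chose other regions with the same kind of pattern. Keeping 25000 intervals per list gave 75 opened and 65 closed regions, which shared 0 and 0 with those described here. Keeping 75000 gave 102 and 132, which shared 3 and 1. When all deposited intervals were used, 175 and 99 regions passed, again sharing 0 and 0. None of the 197 regions was absent from all 4 full lists of the times at which it was not kept.

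Fold enrichment is the deposited ratio of signal to local background at the summit. It comes from the same peaks as the p-values that chose the regions, so its order over the times was not independent of that choice. Its median in opened regions was 4.84 and 4.22 (0 h), 5.49 and 5.98 (48 h), 7.15 and 7.23 (72 h), and 5.09 and 4.09 (96 h). In closed regions it was 7.39 and 7.45 (0 h), 3.66 and 3.73 (48 h), 4.89 and 4.91 (72 h), and 7.0 and 6.13 (96 h). The mean of the listed values of 48 h and 72 h against that of 0 h and 96 h had a median log2 ratio of 0.51 in opened regions (range 0.14 to 1.17) and of -0.72 in closed regions (range -1.58 to -0.35). Every library of the high times exceeded every library of the other times in 48 of 105 opened regions (45.7%) and in 81 of 92 closed regions (88.0%), beside 0.601% and 4.12% of all regions for the same directions, and nothing is read from these counts. Fold enrichment is not scaled between libraries, and its median over all regions was 5.69 and 6.00 in the libraries of 48 h but 6.57 to 7.49 in the other 6, and the closed order was met more often across the genome.

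The times that the rule treats alike could still differ, and here the order was free to vary. Opened regions ranked better in both libraries of 48 h than in both of 72 h in 24 cases (22.9%, against 17.8% of all regions) and the other way in 15 (14.3%, against 20.9%). Closed regions ranked better in both libraries of 72 h than in both of 48 h in 35 cases (38%, against 20.9%) and the other way in 4 (4.35%, against 17.8%). The closed regions were thus weakest at 48 h more often than at 72 h. Between the outer times, 17 opened regions (16.2%) ranked better in both libraries of 0 h than in both of 96 h, against 20% of all regions, and 26 (24.8%) ranked better at 96 h, against 16.5%. Among closed regions 22 (23.9%) ranked better at 0 h and 8 (8.70%) at 96 h, against the same 20% and 16.5%.

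Lists of different length move this order for all regions. When rank was replaced by the percentile within the list, 10.2% of all regions were better in both libraries of 48 h and 28.7% in both of 72 h. Against these levels, 6 opened regions (5.71%) were better at 48 h and 27 (25.7%) at 72 h, both shares below those of all regions. Closed regions gave 1 (1.09%) and 47 (51.1%), again below the level of all regions at 48 h and above it at 72 h. Between the outer times all regions were at 10.7% (better at 0 h) and 24.7% (better at 96 h). Opened regions gave 1 (0.952%) and 36 (34.3%), below and above these levels as by rank. Closed regions gave 9 (9.78%) and 28 (30.4%), so that their higher share at 0 h by rank was not seen by percentile.

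None of the 8 most separated opened regions lay within 1 kb of a start site. The widest gap was at chr16:30465648-30466286, an intergenic region 77118 bp from Atp13a3, which encodes a P5-type ATPase of polyamine transport. It ranked 77558 at 0 h replicate 1 and had no interval at 0 h replicate 2. Its ranks were 28840 and 18518 (48 h), 36902 and 33011 (72 h), and 78237 and 108247 (96 h). Fold enrichment there went from 4.27 in the 1 library of 0 h that listed it to 7.11 and 10.1 (48 h) and 8.59 and 9.04 (72 h), and was 4.46 and 2.86 (96 h). Repeat-masked sequence made up 60.5% of its 200 bp summit window, and 84.5% of that near Serinc5.

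Next in order was chr9:59974962-59975547 in an intron of Thsd4, which encodes an extracellular matrix protein of microfibrils. The nearest coding start was that of Nr2e3, a nuclear receptor of photoreceptors, at 24845 bp. Its fold enrichment was 2.28 and 2.96 (0 h), 5.33 and 7.62 (48 h), 6.83 and 6.93 (72 h), and 4.14 in the 1 library of 96 h that listed it. The region near Serinc5, a gene of the serine incorporator family, gave 3.13 in 1 library of 0 h, 6.75 and 8.94 (48 h), 7.16 and 7.23 (72 h), and 4.14 and 3.68 (96 h). Both regions were above every outer library in all 4 libraries of 48 h and 72 h.

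An intron region of Ski, a repressor of TGF-beta signalling, had the best rank of the 8, at 10255 in 48 h replicate 1. Its fold enrichment of 8.52 and 7.57 (48 h) was above the 5.76 and 6.46 (72 h), and the outer times lay between 2.62 and 4.25. It held the TEAD motif CATTCCA and the SP/KLF motif GGGCGGG. The remaining 4 lay in introns of Tbc1d30, a Rab GTPase-activating protein, Sorcs2, a sortilin-family receptor, and Prex1, an exchange factor for Rac, and in intergenic sequence 317294 bp from Tenm4, a teneurin. The Prex1 region was the closest of the 8 to a start site, at 2334 bp. It had no interval in 1 library of 0 h and in 1 of 96 h.

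The 8 most separated closed regions were led by chr14:114531690-114532206, 560044 bp from Gpc5, which encodes a glypican of the cell surface. Fold enrichment there was 10.5 and 7.60 (0 h). It was 3.55 and 2.98 (48 h) and 3.43 and 3.61 (72 h). At 96 h it was 9.55 and 12.9, so that 1 of the libraries of 96 h was above both of 0 h. The region near Serp2, 176577 bp from a gene of endoplasmic reticulum stress, gave 7.01 and 8.52 (0 h), 2.94 in the 1 library of 48 h that listed it, 4.13 and 3.54 (72 h), and 8.71 and 5.62 (96 h). An intron region of Inpp4b, a phosphoinositide phosphatase, gave 8.82 and 8.87 (0 h), 2.61 in 1 library of 48 h, 4.58 and 4.52 (72 h), and 10.2 and 6.13 (96 h).

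The other closed regions of this group lay in an intron of BC067074, 28272 bp from Nfyb, a subunit of the CCAAT-binding factor NF-Y, in a noncoding exon of Gm38412 at 94698 bp from Lrig2, 4109 bp from Rfx5, a regulator of MHC class II genes, and 14905 bp from Tcaf3. The region near Tcaf3 ranged most in mid-course, with 3.55 and 4.10 (48 h) and 6.01 and 3.31 (72 h) against at least 8.44 in every library of 0 h and 96 h. None of the 8 lay within 1 kb of a coding start site.

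**Figure D2:**
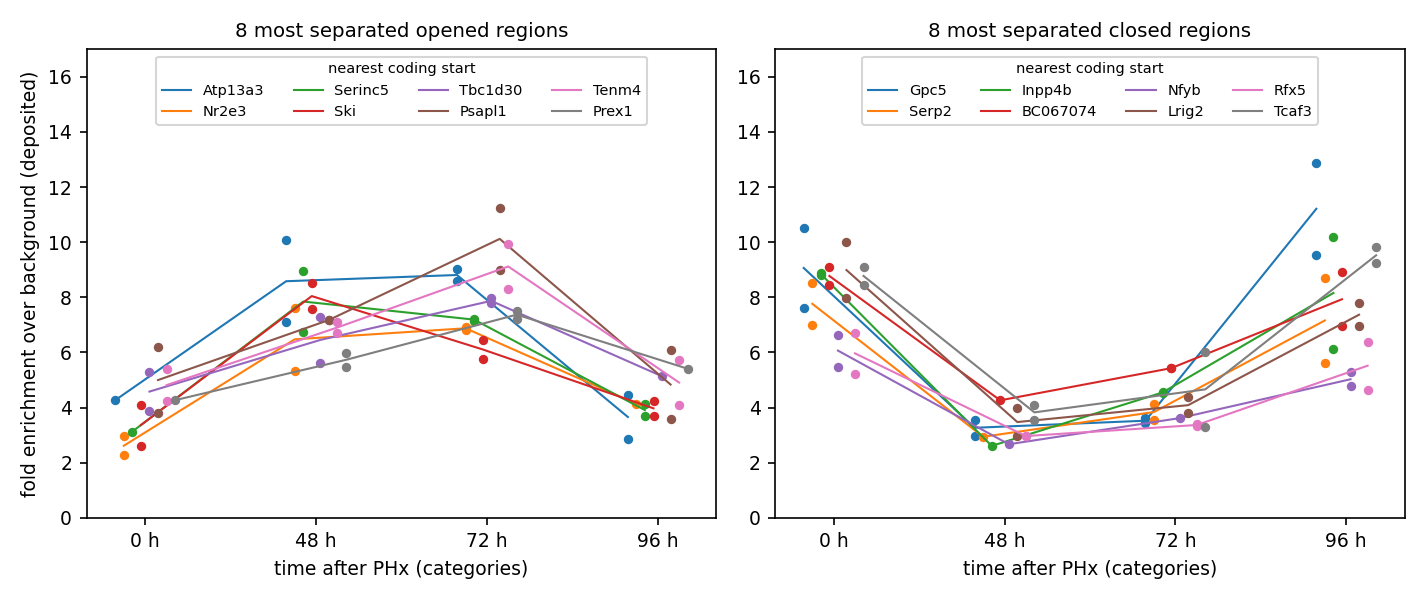
Fold enrichment (deposited ratio, no unit) of the 8 most separated opened (left) and closed (right) regions at each time, with 1 colour per region named by its nearest coding start site. Points are libraries, lines join the means of the listed values, and a library with no interval has no point. The Atp13a3 region reached 7.11 and 10.1 (48 h), and the Gpc5 region stood at 3.55 and 2.98 (48 h) between 10.5 and 7.60 (0 h) and 9.55 and 12.9 (96 h).

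Position in the genome differed between the directions. Of the opened regions 19 (18.1%) lay within 1 kb of an annotated transcription start site (TSS), against 8 closed regions (8.70%), 13.5% of the other regions kept in exactly 4 lists and 23.9% of all regions. Opened regions outside promoters lay mostly in introns, and by summit 61.0% of all opened and 52.2% of all closed regions were intronic, against 49.0% of all regions. The median distance to a coding start site was 15165 bp in opened and 29159 bp in closed regions, against 17313 bp over all regions. It exceeded 100000 bp in 9 opened (8.57%) and 23 closed regions (25%), against 13.7% of all regions. The difference in promoter share depended on how intervals were selected, since with 25000 intervals per list the closed share was 32.3% and the opened share 24.0%, and by order alone they were 33.6% and 22.7%.

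Base composition followed the same direction, but it was not counted again with other selections of intervals. The summit windows had a median GC content of 52.5% in opened and 46.0% in closed regions, against 51.0% over all regions, and 20 opened windows (19%) but 3 closed ones (3.26%) held 10 or more CpG dinucleotides, against 18.1% of all. Opened promoter regions had a median of 19 CpG in the window, and closed ones 5.5. Median widths were 593 bp and 552.5 bp, against 636 bp over all regions. The nearest region kept in all 8 lists was a median of 11364 bp away for opened and 15428 bp for closed regions, against 14357 bp over all regions.

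**Figure D3:**
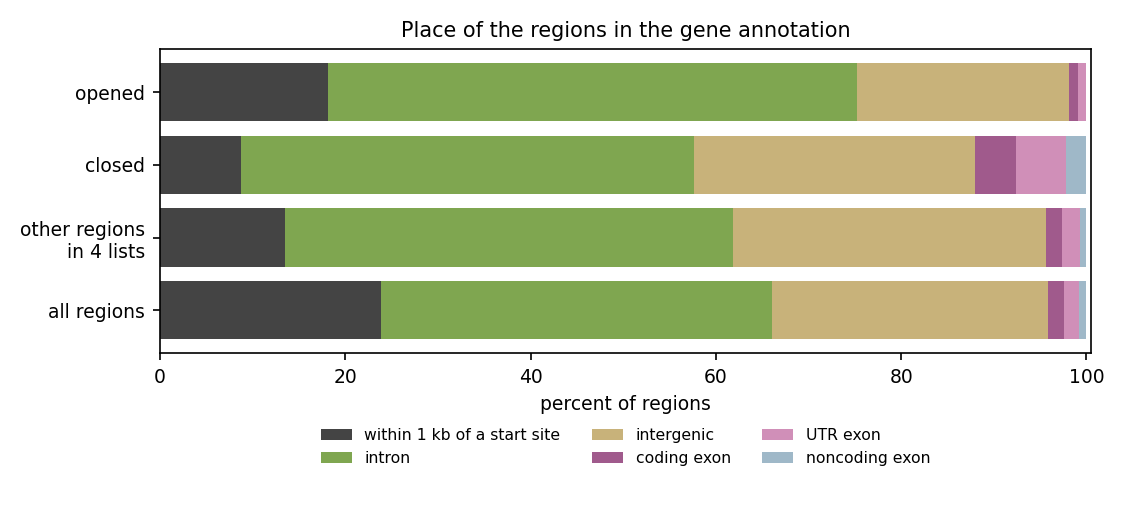
Percent of opened, closed, other regions kept in exactly 4 lists and all regions in each class of the gene annotation, with regions within 1 kb of a start site counted first. The promoter class made up 18.1% of opened, 8.70% of closed and 23.9% of all regions.

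Opened promoter windows held from 2 to 30 CpG. The 6 most separated opened promoters were those of Slc38a11, a putative amino acid transporter, Gm11549, Nsg2, a vesicle protein of neurons, Lypd1, Kctd1 and Trhde, the peptidase that degrades thyrotropin-releasing hormone. The Nsg2 promoter had fold enrichments of 5.69 and 3.8 (0 h), 6.04 and 6.71 (48 h), 8.31 and 11.4 (72 h), and 6.36 and 5.32 (96 h). One library of 96 h was thus above 1 of 48 h on this measure although its rank was outside the threshold. At the Lypd1 promoter the values lay closer together, at 4.19 and 4.64, 5.0 and 4.99, 6.20 and 5.88, and 3.91 and 4.02 in order of time.

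Closed promoters were fewer. Within 1 kb of a coding start site there were 5, those of Ptger4, a prostaglandin E2 receptor, G6pc3, the ubiquitous glucose-6-phosphatase, Papss2, an enzyme that makes the sulfate donor, Zfand6 and Lamtor1, a subunit of the Ragulator complex on lysosomes. Fold enrichment at Ptger4 was 10.8 and 7.12 (0 h), 3.52 and 3.85 (48 h), 4.81 and 5.12 (72 h), and 6.65 and 7.92 (96 h). At G6pc3 it was 7.67 and 7.42 (0 h), 3.5 and 4.04 (48 h), 5.35 and 5.43 (72 h), and 5.93 and 6.22 (96 h). At both genes the 2 libraries of 48 h were the lowest of the 8.

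Few regions lay near genes of the lists of liver biology, which hold a small share of all regions too. Nearest coding genes within 100000 bp were counted in each list. Genes of drug, steroid and bile metabolism (312 genes) had 0 opened and 3 closed regions (3.26%), against 1.47% of all regions. The closed ones included ones near Abcg1, a sterol exporter, and Akr1e1, an aldo-keto reductase. The Abcg1 region had fold enrichments of 5.82 and 8.38 (0 h), 4.23 and 4.45 (48 h), 5.25 and 4.98 (72 h), and 6.69 and 7.30 (96 h). Its values at 48 h and 72 h were all below those of the outer times. Lipid and sterol genes (85) were nearest to 0.724% of all regions. They had 1 opened region (0.952%) in Dhcr7, the last enzyme of cholesterol synthesis, and 2 closed regions (2.17%), in an intron of the fatty acid elongase Elovl6 and near Fabp2, an intestinal fatty acid-binding protein. The Dhcr7 region differed little between times, from 3.41 to 4.24 at 0 h and 96 h and from 4.24 to 4.94 at 48 h and 72 h.

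Plasma protein genes (64) had 1 region of each direction (0.952% and 1.09%), against 0.431% of all regions. In an intron of Hpx, which encodes the heme carrier hemopexin, the opened region had fold enrichments of 2.05 in 1 library of 0 h, 2.32 and 2.04 (48 h), 2.39 and 2.19 (72 h), and 2.01 and 2.0 (96 h), so that 48 h replicate 2 did not exceed 0 h replicate 1 by this measure. In an intron of Itih4, a plasma heavy chain of the inter-alpha-trypsin inhibitor family, the closed region had 4.50 and 7.48 (0 h), 3.04 and 1.73 (48 h), 2.84 and 2.67 (72 h), and 5.36 and 4.31 (96 h). The Itih4 region lay 20794 bp from an opened region whose nearest coding gene was Mustn1, the closest pair among all 197.

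Genes of morphogen pathways (178) had the most members, 4 opened (3.81%) and 3 closed (3.26%), against 1.46% of the other regions kept in exactly 4 lists and 1.38% of all regions. The opened ones lay at Fzd2, a Wnt receptor, in introns of Tcf7l2, a transcription factor of the Wnt pathway, of Smad1, which transmits BMP signals, and of Tead4, a partner of YAP. Closed ones lay in introns of Bmp3 and Tcf7l2 and near Fzd5. Tcf7l2 therefore had a region of each direction in its introns, 62049 bp apart. The opened one had fold enrichments of 4.07 and 4.84 (0 h), 5.48 and 6.43 (48 h), 5.29 and 7.69 (72 h), and 4.70 and 3.12 (96 h). The closed one, which held an AP-1 match, had 5.37 and 6.70 (0 h), 3.63 in 1 library of 48 h, 3.02 and 3.85 (72 h), and 4.96 and 5.72 (96 h).

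Cell cycle genes (90) were nearest to 0.494% of all regions and had an opened region 33357 bp from Ccne1, which encodes cyclin E1, and a closed intron region of Ect2, a regulator of cytokinesis. Near Ccne1 the fold enrichments were 5.98 and 4.64 (0 h), 8.71 and 8.57 (48 h), 10.9 and 6.63 (72 h), and 6.68 and 4.91 (96 h). That region was among the least separated, since 72 h replicate 2 ranked it 49834 while the other 3 mid-course libraries ranked it 25786 or better. Immediate early and stress genes (82) had 1 closed region, 21132 bp from Atf3, against 0.773% of all regions. Cytokine and growth factor genes (107) had 1 opened region, 39375 bp from the interferon gamma receptor gene Ifngr1, against 0.943%. The list of fetal and progenitor genes (40) had 1 closed region, against 0.29%, and its gene, Esrp2 at 30046 bp, encodes an epithelial splicing factor of mature hepatocytes, which the name of the list does not describe. Hepatocyte transcription factors (48 genes), glucose and amino acid enzymes (68) and cytoskeleton and adhesion genes (373) had 0 in either direction, against 0.726%, 0.611% and 1.61% of all regions. The 197 regions had 195 distinct nearest coding genes, and Magi1 and Tcf7l2 were the 2 with a region of each direction.

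Counts of short sequence motifs at the summits differed between the directions. The motifs were searched on both strands of 200 bp around the summit of the best-ranked kept interval. The AP-1 motif was in 14 of 105 opened windows (13.3%) and 3 of 92 closed windows (3.26%), against 7.24% of the other regions kept in exactly 4 lists and 7.88% of all regions. By order of separation, 4 of the 8 most separated opened regions held it, near Atp13a3, Nr2e3, Serinc5 and Tenm4, but only 5 of the 25 most separated. Among closed regions 0 of the 8 and 1 of the 25 most separated held it. Separation comes from the ranks that chose the regions, so nothing is read from this order. In opened windows the AP-1 match lay a median of 23.0 bp from the summit, and 10 of the 14 were within 50 bp. Opened regions with the match had median ranks of 60119 and 82469 (0 h), 34333 and 36981 (48 h), 39719 and 37822 (72 h), and 68336 and 74244 (96 h). Away from start sites the shares were 15.1% and 2.38%, against 9.10% of all such regions.

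CTCF matches were as frequent in opened windows, at 14 of 105 (13.3%) against 1 of 92 closed windows (1.09%), 7.42% of the other regions kept in exactly 4 lists and 6.95% of all regions. All 14 lay within 30.5 bp of the summit, at a median of 12.5 bp, and 1 window held both motifs. Opened regions with a CTCF match had a median separation of 1.16 (range 1.04 to 1.37). Those with an AP-1 match had 1.25 (range 1.09 to 2.10). The ranges overlap and come from the ranks that chose the regions, so nothing is read from them. Across whole libraries the share of kept regions with a CTCF match was 7.05% and 6.80% (0 h), 7.68% and 8.14% (48 h), 7.40% and 7.60% (72 h), and 7.68% and 7.32% (96 h), and the part of these library differences in the result was not tested.

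**Figure D4:**
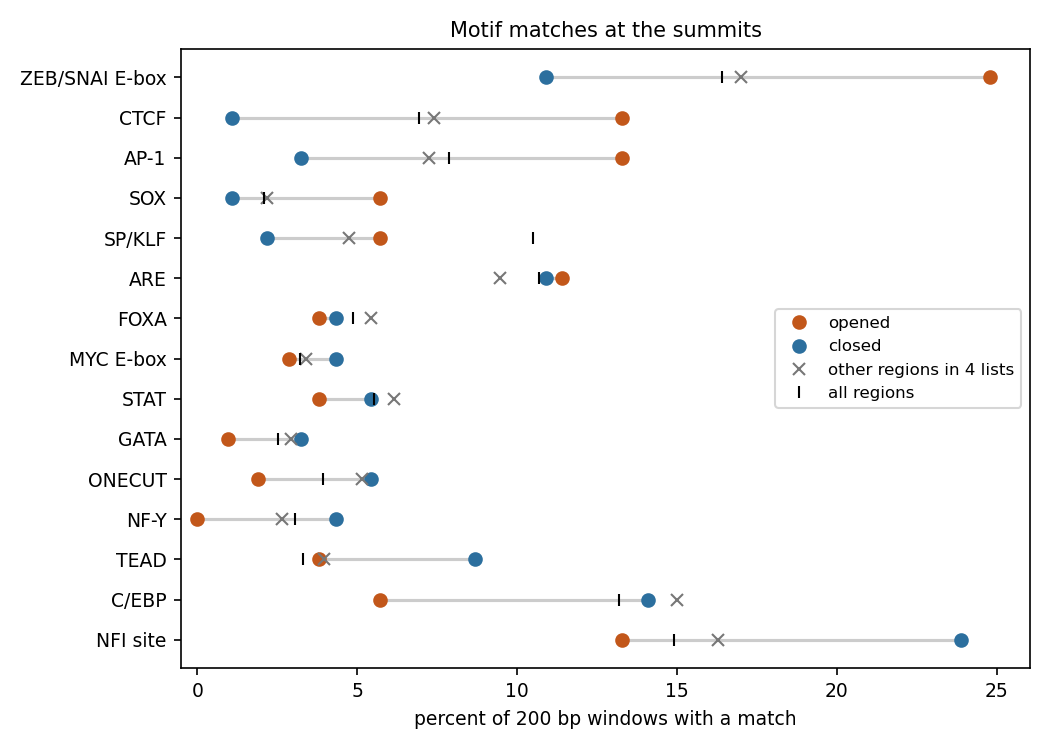
Percent of 200 bp summit windows with a match, for motifs found in at least 3% of opened or closed windows, with opened and closed regions as filled circles, other regions kept in exactly 4 lists as crosses and all regions as ticks. AP-1 and CTCF were at 13.3% in opened and 3.26% and 1.09% in closed windows, while C/EBP was at 5.71% and 14.1%.

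Other motifs differed in the same or in the reverse direction. The E-box CAGGTG, which ZEB and SNAI repressors bind, was in 26 opened (24.8%) and 10 closed windows (10.9%), against 16.4% of all. Because CTCF sites often contain these letters, matches outside a CTCF match were counted, and 20 opened (19%) and 10 closed windows (10.9%) held one, against 15.6% of all regions. The SOX motif ACAATGG was in 6 opened (5.71%) and 1 closed window (1.09%), against 2.10%. In the reverse direction, the C/EBP motif TTNNGCAA was in 6 opened (5.71%) and 13 closed windows (14.1%), against 13.2%, so it was the opened regions that fell below the level of all regions. The NFI motif TTGGCA was in 14 opened (13.3%) and 22 closed windows (23.9%), against 14.9%, and the TEAD motif CATTCCA in 4 (3.81%) and 8 (8.70%), against 3.31%. The C/EBP match shown near Serp2 contains the letters of the NFI motif, so the shares of these motifs overlap in part. SOX shares were not counted with other interval limits, but by order alone they were 2.83% opened and 1.56% closed, against 2.10% of all regions. The E-box order was the reverse with all deposited intervals, at 12.6% opened and 18.2% closed, and with intervals of q under 0.05, at 14.5% and 20%. The TEAD order was the reverse with 75000 intervals per list, at 6.86% opened and 0.758% closed, and also with all deposited intervals, by fold enrichment and by order alone. The closed TEAD share was at most 3.12% in the selections by 25000, by 75000, by all deposited intervals, by q, by fold enrichment and by order alone. With 75000 intervals C/EBP was at 12.7% opened and 12.1% closed, and NFI at 16.7% in both.

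Opened and closed windows held the HNF4 and FOXA motifs at slightly lower shares than all regions, on counts of 2 to 4. The HNF4 motif CAAAGTNCA was in 3 opened (2.86%) and 2 closed windows (2.17%), against 3.38% of all, and the FOXA motif TGTTTAC in 4 (3.81%) and 4 (4.35%), against 4.87%. The ONECUT motif was in 2 (1.90%) and 5 (5.43%), against 3.94%. No match to any of the 26 motifs was found in 29 opened (27.6%) and 26 closed windows (28.3%), against 25.9% of all regions. These are counts over regions of the same 8 libraries, and regions are not replicates, so no test was made.

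The motif shares were also counted in the regions that other selections chose from the same libraries. Those of 25000, 75000 and all deposited intervals shared 0 to 3 regions of a direction with the ones described here. Those of the 50000 intervals of highest fold enrichment shared more, 32 of the 105 opened and 28 of the 92 closed regions. The AP-1 share was 22.7% in opened and 4.62% in closed regions with 25000 intervals per list, 21.6% and 7.58% with 75000, 11.4% and 7.07% with all deposited intervals, and 18.8% and 5.21% with the 50000 intervals of highest fold enrichment. All regions of those settings were at 7.29%, 8.15%, 7.49% and 8.01%. The opened share was above and the closed share below the level of all regions each time. For CTCF the opened share was 6.67%, 2.94%, 2.86% and 7.92%, against 7.80%, 5.32%, 2.18% and 6.97% of all regions, and it was thus below the level of all regions with 25000 and 75000 intervals. The closed CTCF share was below the opened one in each, at 1.54%, 2.27%, 1.01% and 4.17%. In the 1413 and 1540 regions with the same order of all 8 ranks, AP-1 was at 12.9% and 5.58% and CTCF at 10.4% and 1.69%.

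**Figure D5:**
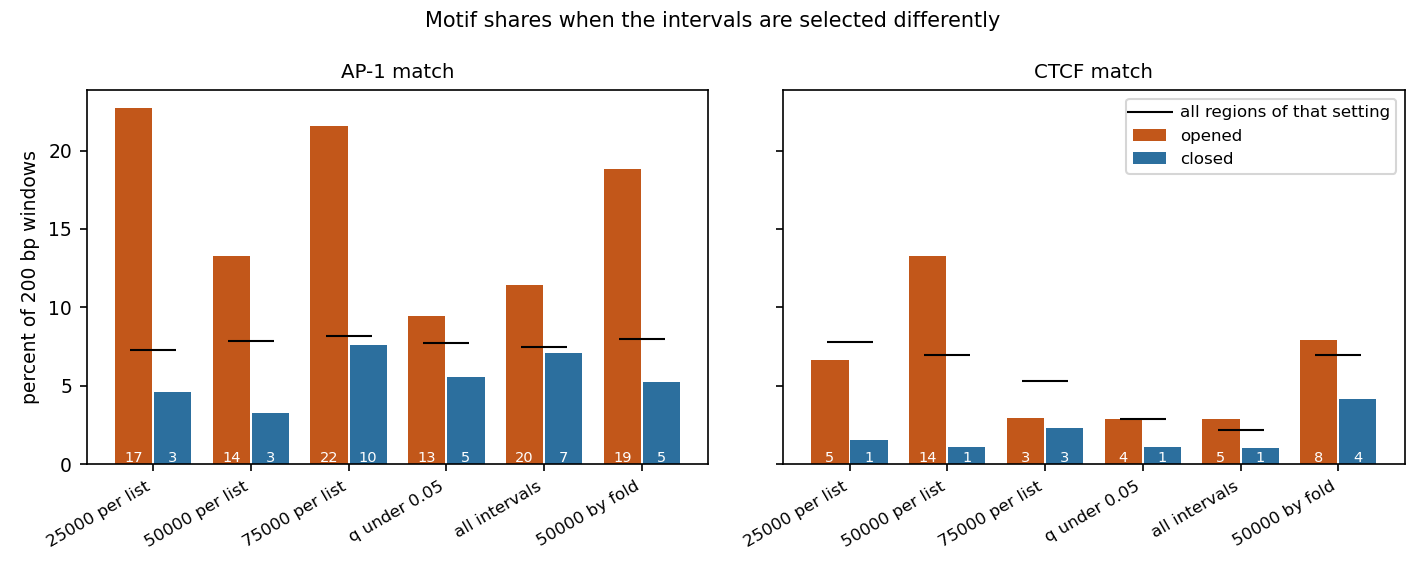
Percent of 200 bp summit windows with an AP-1 (left) or CTCF (right) match in opened and closed regions when intervals were selected in 6 ways. White numbers are the windows with a match, and black dashes mark all regions of that selection. The opened AP-1 bars exceed the dash in every selection, at 13.3% against 7.88% for 50000 intervals per list, whereas the opened CTCF bar is below it at 2.94% against 5.32% for 75000.

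Leaving out a library removes a condition of the rule. The counts therefore tend to rise, and nearly all regions remain, whichever library is left out. One list, that of 72 h replicate 2, does not carry the flow-cell and lane name that the other 7 share. Without it the rule gave 183 opened and 207 closed regions, which included 104 and 92 of those described here. Leaving out any other library gave between 149 and 273 opened and between 148 and 323 closed regions, with the most opened ones without 72 h replicate 1 and the most closed ones without 96 h replicate 1.

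Motif and promoter shares also moved with single libraries. The closed promoter share was 15.4% with 48 h replicate 2 left out, and 16.4% with 96 h replicate 1 left out, against opened shares of 15.5% and 17.4%. Leaving out 1 library at a time, the AP-1 share ran from 10.0% to 15.0% in opened and from 3.38% to 7.43% in closed regions. The closed AP-1 share was highest without 96 h replicate 1, at 7.43%, which is near the 7.88% of all regions, and reached 6.67% if 0 h replicate 1 was left out, or 5.96% if it was 96 h replicate 2. The closed CTCF share, which rests on 1 window, was 5.14% without 48 h replicate 2, and it passed 1.5 times its value without every library but 72 h replicate 1. The opened CTCF share ran from 9.55% to 14.1%. For the E-box, the opened share was 15.8% without 72 h replicate 1, below the 16.4% of all regions, and the closed share was 17.6% without 0 h replicate 1. The opened C/EBP share was 11.8% when 48 h replicate 2 was omitted, and 12% when 72 h replicate 2 was. The closed TEAD share was between 4.17% and 5.71% without either library of 48 h, 72 h replicate 1 or either library of 96 h, and the opened one was 6.71% without 0 h replicate 2, above the closed 6.59%.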

How the data were processed

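ATAC-Seq peak lists of 8 mouse hepatocyte libraries were used, 2 at each of 0, 48, 72 and 96 h. The authors aligned reads to mm10 with Bowtie2 in the ENCODE pipeline, removed duplicates and called peaks in each library with MACS2 at p under 0.01. Versions are not given in the sources used here. The deposited lists hold, for each summit, an integer score, a fold enrichment (ratio of signal to local background), −log10 p, −log10 q and a summit offset (other), and no counts, so depth and counting error are unknown.

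Intervals were collapsed to distinct coordinates at the highest −log10 p, ranked, limited to 50000 per list and merged at 1 bp. Places and nearest coding start sites came from the GENCODE basic annotation of GRCm38 with 75451 start sites, and sequence from RefSeq's GRCm38.p6. The 26 motifs were searched in 200 bp. Steps were tested on simulated lists (Python 3.11.15, numpy 2.4.6, pandas 2.3.3).

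The regions, gene lists and motifs were chosen with earlier results of these data known. Because the rule used all 8 libraries, no test was made. Named regions were the 8 most separated of each direction, up to 3 per gene list, the 6 most separated within 1 kb of a coding start site, and the 2 of smallest separation inside and the 2 that failed by the fewest places outside the threshold, and the most separated holding a motif shown. Tead4, Mustn1 and Magi1 were named after their values were seen. Alternatives covered the interval limit, the ranking, overlap, window, promoter distance and each library left out. One region that the rule names is not reported here.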

Additional observations from a re-analysis of the deposited data

How the results depend on the processing

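No paired analysis was possible because the result comes from no test. Opened regions numbered 175 with all deposited intervals and closed ones 99, 0 and 0 when intervals in any full list of the other times were barred, and 1413 and 1540 by order of the ranks alone, an alternative chosen after seeing the data. Leaving out 1 library, which relaxes the rule, gave 149 to 273 opened and 148 to 323 closed regions. The other alternatives kept the counts within 1.5 times. The promoter share of closed regions was 32.3% with 25000 intervals per list, 21.4% with 200 bp around each summit and 33.6% by order alone, and within 2500 bp of a start site the shares were 29.5% (opened) and 18.5% (closed). Without 1 library the promoter shares ran from 15.4% to 19.4% (opened) and from 7.78% to 16.4% (closed). The promoter share was higher in opened than closed regions in 12 of 17 alternatives. AP-1 and CTCF shares were higher in opened than in closed regions in all 17, by 2.57 to 18.1 and 0.67 to 12.3 percentage points. The 17 include each library left out, which kept nearly all the regions described here. C/EBP was lower in opened regions in 16 of 17, NFI in 15, the E-box was higher in 15, TEAD lower in 11, and FOXA and HNF4 turned in 4 and 10. With gene lists limited to 50000 bp, counts stayed within 1.5 times in all 30, but most were 0 or 1. The closed counts of drug, steroid and bile metabolism and of morphogen pathways went from 3 to 2, at that limit. The closed Tcf7l2 region was lost from the latter. Depth is unknown, so weak regions cannot be told from shallow libraries.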
